A study of Mus musculus with 8 samples.

Results

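The interleukin-6 (IL-6) family of cytokines and their gp130 receptors was examined in lymphatic endothelial cells of mouse ear skin, the cells that line the vessels draining fluid and leukocytes from the tissue. The genes were given as a list of 10: the ligands Il6, Osm, Lif, Il11 and Clcf1, and the receptor chains Il6st, Il6ra, Osmr, Lifr and Il11ra1. Of these, 9 had at least 1 probe set whose platform annotation names that gene alone, 20 probe sets in all, among 18193 genes and 45037 probe sets of the array. Il11ra1 was not analysed here. Transcripts were measured on 8 arrays, 4 from untreated skin and 4 from inflamed skin. All mice were female, of the FVB strain, 8 to 10 weeks old and kept free of specific pathogens. Inflamed ears came from mice with contact hypersensitivity. They had been sensitised with 2% oxazolone on abdomen and paws, were challenged 5 days later with 1% oxazolone, 10 µl on each ear side, and were killed 24 hours after that. Untreated mice are labelled healthy, and no vehicle treatment is given for them. Each sample pools cells from the ears of 3 mice, and each untreated sample forms a pair with an inflamed sample handled in parallel on that day. The 4 pairs were picked for the quality of their RNA and cDNA, per the series' design text. The cells were sorted as positive for CD31 and podoplanin and negative for CD45.

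Cytokines of this family signal through gp130, the shared receptor chain encoded by Il6st. IL-6 and IL-11 bind a private alpha chain first (Il6ra, Il11ra1) and then bring gp130 chains together, whereas LIF, oncostatin M and cardiotrophin-like cytokine pair gp130 with the LIF receptor or, for oncostatin M, with the oncostatin M receptor. The paired chains activate JAK kinases, which phosphorylate STAT3, and STAT3 induces Socs3, which in turn blocks gp130. A soluble form of the IL-6 receptor lets cells without Il6ra respond to IL-6.

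In inflamed samples, transcripts of the ligands Il6 and Osm were higher than in untreated samples, their means by at least 12.04-fold and 6.78-fold. The call of Osm ended when any 1 of the 4 pairs was left out and without the intensity trend. Of the receptor chains, Osmr was higher in all 4 pairs, with a call that depended on the probe set. The shared chain Il6st was bright on every array and differed by 0.10 on the log2 scale, with a 95% interval from -0.20 to 0.41. Among genes for signalling and its brakes, Socs3, Ptpn1 and Stat3 were called higher, Stat3 close to the threshold. The calls of Ptpn1 and Stat3 ended in several alternative analyses and were not shared by their other probe sets. In a fit over all probe sets, no probe set of Stat3 was called. The call of Socs3 ended in 1 alternative, without the intensity trend. Values are log2 signals, changes are inflamed minus untreated averaged over the 4 pairs, and a gene was called at an adjusted p under 0.05 in limma with the pair as a block.

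Upstream sequences are shown for Il6, a called ligand, for Lif, a ligand that was not called, for Osmr, and for the feedback inhibitor Socs3. They set the binding motifs of these genes side by side. Each run holds the 250 bases before the transcription start in RefSeq (GRCm38.p6), written 5′ to 3′ on the gene's strand. The windows are chr5:30012864-30013113, plus strand for Il6, chr11:4257318-4257567, plus strand for Lif, chr15:6874314-6874563, minus strand for Osmr and chr11:117969367-117969616, minus strand for Socs3. Capitals mark matches, on either strand, to the STAT motif TTCNNNGAA, the AP-1 motif TGANTCA, the cAMP response element TGACGTCA and the NF-kB motif, named kappaB.
Il6: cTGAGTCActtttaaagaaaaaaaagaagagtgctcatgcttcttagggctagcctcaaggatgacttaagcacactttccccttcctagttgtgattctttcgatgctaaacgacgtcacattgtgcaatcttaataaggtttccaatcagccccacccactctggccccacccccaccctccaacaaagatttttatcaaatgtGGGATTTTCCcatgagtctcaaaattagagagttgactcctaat
Lif: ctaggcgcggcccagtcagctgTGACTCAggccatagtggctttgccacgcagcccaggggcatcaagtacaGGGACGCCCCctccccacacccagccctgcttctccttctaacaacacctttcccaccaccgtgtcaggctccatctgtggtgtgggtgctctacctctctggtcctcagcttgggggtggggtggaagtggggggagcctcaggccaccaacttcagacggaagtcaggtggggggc
Osmr: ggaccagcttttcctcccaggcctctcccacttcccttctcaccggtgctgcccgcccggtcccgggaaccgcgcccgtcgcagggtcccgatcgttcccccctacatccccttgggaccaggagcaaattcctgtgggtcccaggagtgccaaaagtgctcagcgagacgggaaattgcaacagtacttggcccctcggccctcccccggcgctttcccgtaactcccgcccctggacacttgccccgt
Socs3: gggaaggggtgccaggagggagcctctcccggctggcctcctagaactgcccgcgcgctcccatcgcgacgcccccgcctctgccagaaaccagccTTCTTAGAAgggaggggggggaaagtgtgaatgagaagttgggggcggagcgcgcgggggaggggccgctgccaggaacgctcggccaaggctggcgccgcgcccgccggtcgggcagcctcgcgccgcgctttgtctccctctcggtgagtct

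The Il6 window held a kappaB match 44 to 35 bases before the start and an AP-1 match 249 to 243 bases before it. The Lif window also held both, a kappaB match at 178 to 169 and an AP-1 match at 228 to 222 bases. The Osmr window held none of the 4 motifs, and the Socs3 window held a STAT match at 154 to 146 bases. The matches shown do not overlap one another. RefSeq windows were at hand for 8 of the 10 genes, all but Osm and Clcf1, 11 windows in all. Of these, 3 held the AP-1 motif (6.75% of all 32851 windows did), 2 the kappaB motif (7.25%), 0 the STAT motif (7.02%) and 0 the cAMP response element (1.55%). A match describes the letters only. In the gene order of the same assembly Lif and Osm are direct protein-coding neighbours on chromosome 11, as are Osmr and Lifr on chromosome 15.

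The sort was checked on its markers. All 11 measured lymphatic endothelial markers, among them Pdpn, Lyve1, Prox1 and Pecam1, lay above background on every array, where background is the 95th percentile of 27 bacterial control probe sets of that array, at 2.53 to 3.31. Ptprc, which encodes CD45, was under background on all 4 untreated arrays and above it on 3 of 4 inflamed arrays. Mean signals ranged from 126.2 to 160.4 per array. Of 10843 genes tested, 424 (3.91%) were called higher and 328 (3.02%) lower. The median change over all genes was -0.09, and 56.4% of the calls were higher. Centring each array on its median shifted these to 0.22 and 76%. Because the RNA is bulk, a change in the share of cells of a type and a change in RNA per cell cannot be told apart.

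Il6 encodes the founding cytokine of the family, a signal for acute-phase proteins and leukocyte activation. Its log2 signals (1450297_at) on the untreated arrays of pairs 1 to 4 were 1.34, -0.24, -0.76 and 2.47, all under background, and on the inflamed arrays 7.01, 6.09, 6.65 and 6.46. On the linear scale the inflamed signals ran from 68.3 to 128.8. The 4 inflamed values lay close together and above every untreated value. The measured change was 5.85 ± 0.85 (SE; adjusted p = 0.00454, higher in 4 of 4 pairs), but its size rests on untreated values under background, so the bound of at least 12.04-fold is what the arrays give. The call was kept in all 14 alternatives that tested the gene, with adjusted p from 0.000907 to 0.0307.

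Osm encodes oncostatin M, known mainly as a product of neutrophils, macrophages and activated T cells. Its untreated log2 signals (1438767_at) were -0.30, 1.37, 2.95 and 2.83, all under background, and its inflamed ones 6.17, 4.80, 4.87 and 7.06. The groups did not overlap, and inflamed samples 1 and 4 were the highest. The bound, taken between means and given without an error, is at least 6.78-fold. The change was 4.01 ± 0.91 (SE; adjusted p = 0.0312, higher in 4 of 4 pairs), with a 95% interval from 1.96 to 6.07 on the log2 scale. This call ended when any 1 of the 4 pairs was left out (adjusted p 0.0548 to 0.122) and without the intensity trend (0.0849), within a range of 0.0148 to 0.122 over all alternatives. Il6 and Osm reached the filter on dim probe sets only through their inflamed arrays.

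**Figure D1:**
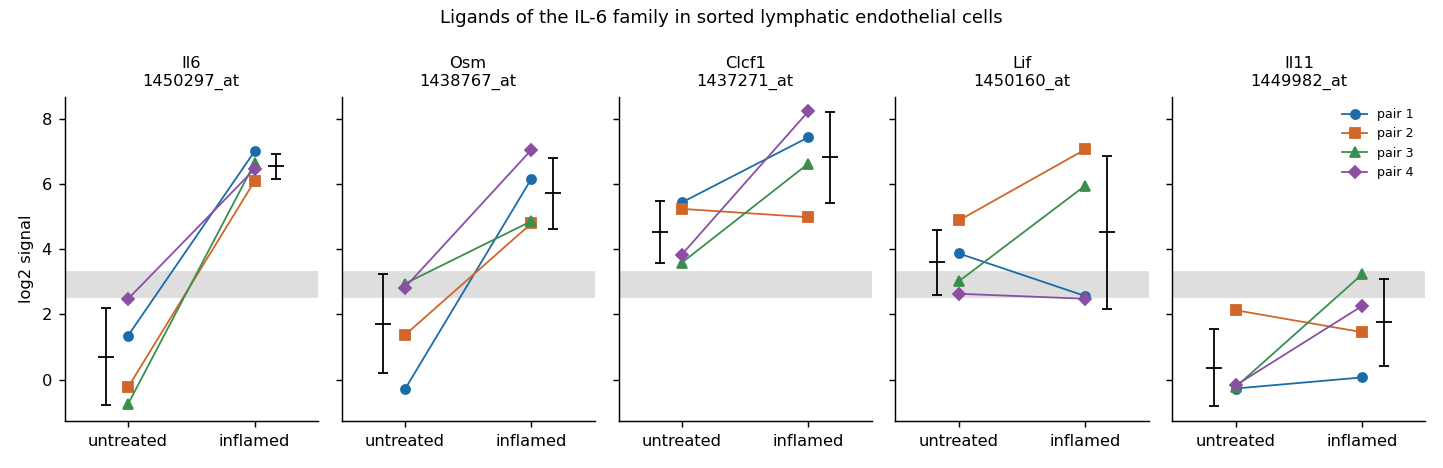
Log2 signal (vertical axis) of the 5 ligand genes on the untreated and inflamed array of each pair (lines), with the mean ± SD of each group (n = 4) beside them and the range of the background limits as a grey band. Il6 and Osm lie above the band on every inflamed array and under their own array's limit on every untreated one (Osm within the band in pairs 3 and 4), while Clcf1, Lif and Il11 overlap between the groups.

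Clcf1 encodes cardiotrophin-like cytokine factor 1, which acts through gp130 and Lifr together with a further alpha chain. Its brightest probe set read 5.44, 5.24, 3.59 and 3.84 on the untreated and 7.44, 4.99, 6.64 and 8.24 on the inflamed arrays. It was higher in pairs 1, 3 and 4 and slightly lower in pair 2, and the groups overlapped. The change of 2.30 ± 0.81 (SE) did not pass (adjusted p = 0.133). A second probe set (1437270_a_at) read 4.73, 3.97, 1.18 and -0.24 untreated and 5.78, 1.24, 4.53 and 6.10 inflamed, with the same order of pairs, higher in 1, 3 and 4 and lower in 2. The remaining one (1450262_at) read 5.18, 5.45, 4.67 and 5.24 untreated and 5.46, 5.84, 4.50 and 4.69 inflamed. It differed by -0.02 against 2.00 for the second, so the 3 did not move alike, and neither of these passed.

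Lif encodes leukemia inhibitory factor. Its brighter probe set read 3.87, 4.89, 3.02 and 2.64 untreated and 2.57, 7.07, 5.96 and 2.48 inflamed, higher in pairs 2 and 3 and lower in pairs 1 and 4. The change of 0.92 had a 95% interval from -1.13 to 2.96 (adjusted p = 0.616). The second probe set was higher in pairs 1, 2 and 4 and lower in pair 3, and did not pass (adjusted p = 0.652 in the fit over all probe sets). Il11, a gp130 cytokine with roles in fibroblasts, was under the filter, and of its 8 values only that of inflamed sample 3 (3.23) was above background. A change smaller than the distance from background would not be detectable for it.

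Il6st, which encodes gp130, read 11.26, 11.77, 11.85 and 12.23 on the untreated and 11.35, 12.14, 12.08 and 11.95 on the inflamed arrays with its brightest probe set. The 2 groups lay within the same narrow range. The change was 0.10 ± 0.13 (SE; adjusted p = 0.714), and its sign turned under quantile and cyclic loess normalization. The other 3 probe sets differed by 0.06, 0.06 and 0.48, none called. The last of these (1460295_s_at) read 9.95, 10.22, 10.80 and 11.16 untreated and 11.11, 11.08, 10.95 and 10.92 inflamed, so that its untreated values were spread out and its inflamed ones lay close together.

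Il6ra encodes the IL-6 binding alpha chain, and its 2 probe sets went opposite ways. The brighter one read 7.30, 8.74, 8.06 and 6.35 untreated and 1.20, 7.77, 8.11 and 5.11 inflamed. The other read 1.71, 2.80, 4.37 and 4.45 untreated and 9.73, 3.14, 5.80 and 4.85 inflamed. Inflamed sample 1 stood apart in both: there the first probe set was at its lowest and under background, while the second was at its highest. The changes were -2.06 ± 0.93 (SE; adjusted p = 0.234) for the first and 2.55 ± 1.19 (adjusted p = 0.372 in the fit over all probe sets) for the second, and with the 2 averaged the change was 0.24. No direction can be given for Il6ra from these arrays.

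**Figure D2:**
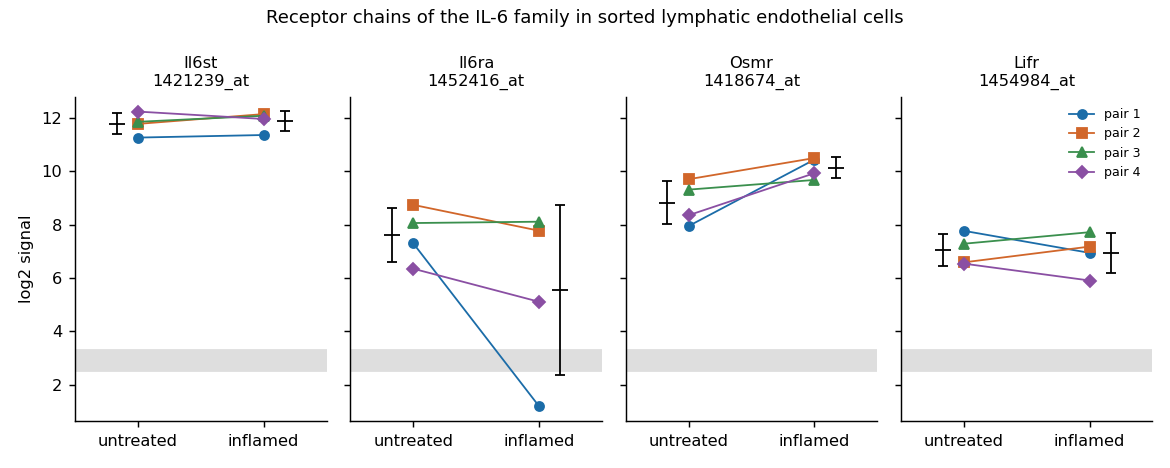
Log2 signal (vertical axis) of the 4 receptor genes, each by its brightest probe set, on the untreated and inflamed array of each pair (lines), with the mean ± SD of each group (n = 4) and the range of the background limits as a grey band. Il6st stays between 11.26 and 12.23, Osmr is higher in every pair, and the Il6ra value of inflamed sample 1 lies under the band.

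Osmr encodes the oncostatin M receptor beta chain. Its brightest probe set (1418674_at) read 7.94, 9.70, 9.31 and 8.35 untreated and 10.43, 10.49, 9.67 and 9.92 inflamed, higher in every pair though untreated sample 2 exceeded inflamed sample 3. The change was 1.30 ± 0.36 (SE) and did not pass (adjusted p = 0.0617), with a 95% interval from 0.50 to 2.11. A second probe set of similar brightness (1418675_at) read 8.26, 7.09, 7.96 and 7.89 untreated and 9.77, 10.03, 9.16 and 9.24 inflamed. Here the groups did not overlap, and the change of 1.75 ± 0.37 (SE) passed in the fit over all probe sets (adjusted p = 0.0275). The dimmer remaining probe set (1459217_at) differed by 1.24 ± 1.08 and did not pass. The call of the brightest probe set was reached under median centring (adjusted p = 0.0300) and with 16 added to the signal (0.0485), over a range of 0.0300 to 0.231.

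Lifr encodes the LIF receptor, the other chain that oncostatin M can use with gp130. Its brightest probe set read 7.76, 6.58, 7.28 and 6.54 untreated and 6.94, 7.17, 7.71 and 5.90 inflamed, lower in pairs 1 and 4 and higher in pairs 2 and 3. The change was -0.11, with a 95% interval from -1.24 to 1.03 (adjusted p = 0.937), and its sign turned under median centring. The other probe sets differed by -1.28 and -0.89 and did not pass. The change of Osmr exceeded that of Lifr by 1.41 ± 1.62 (SD, n = 4 pairs), in 3 of 4 pairs, and this difference did not pass an exact two-sided sign-flip permutation test (p = 0.25, where 4 pairs cannot give less than 0.125). It was 0.78 without pair 1 and 2.19 with probe sets averaged.

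Counted over genes, 2 of the 8 tested members were called higher and 0 lower, beside 3.91% and 3.02% of all genes. Both are among the 4 tested ligands, and 0 of the 4 tested receptor chains was called. Since Il6 and Osm entered the test through the group in which they are high, this count is a description. Counted over all 20 probe sets with no filter, 2 were called higher (Il6 and the second of Osmr) and 0 lower, beside 1.39% and 1.07% of all probe sets, and Osm just missed (adjusted p = 0.0556). In 3 of the 20 the inflamed arrays all lay above the untreated ones, and in 0 all below, beside 3.68% and 4.31% of all probe sets. Of the 20, 15 had a higher and 5 a lower mean in inflamed samples. Their median change was 1.08, beside -0.07 for all probe sets. Probe sets of 1 gene share its transcript and are not independent.

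**Figure D3:**
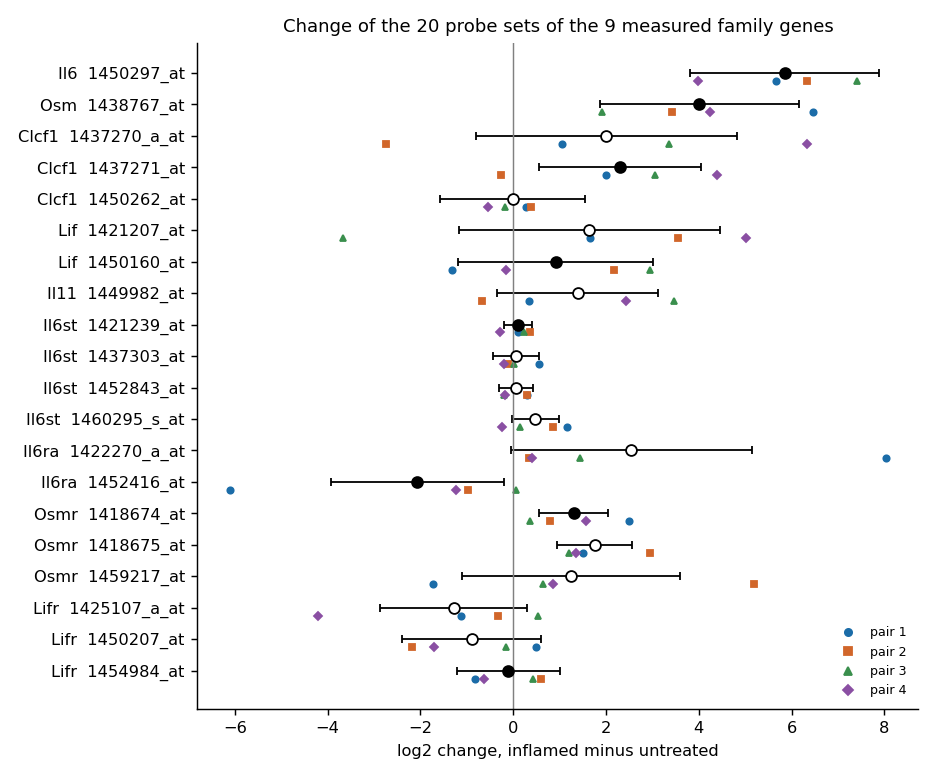
Log2 change, inflamed minus untreated (horizontal axis), of each of the 20 probe sets, with the 95% interval of the limma fit over all probe sets (bars) and the 4 within-pair changes (coloured marks); filled circles mark the probe set that stands for the gene. Only the bars of Il6, Osm, Osmr (2 probe sets), Clcf1 (1) and Il6ra (1) leave out 0, and the marks of pair 1 lie far apart for Il6ra.

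Of the 11 further family genes listed, 6 had a probe set and 2 were tested, none called. Cntfr, the alpha chain for ciliary neurotrophic factor, differed by 1.21 ± 0.78 (SE; adjusted p = 0.419), and Il27ra, the IL-27 receptor that also pairs with gp130, by -0.36 ± 1.01 (0.883). Ctf1, which encodes cardiotrophin 1, was under the filter. Its untreated values were 0.41, -0.17, 0.31 and 3.52 and its inflamed ones 5.00, 3.87, 4.85 and 3.11, higher in 3 pairs and lower in pair 4 (adjusted p = 0.175 in the fit over all probe sets). Ebi3, a subunit of IL-27, Il31 and its receptor chain Il31ra were also under the filter, and Il31 was under background on all 8 arrays. Ctf2, Cntf, Il27 and Il11ra2 were not analysed here.

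Of 11 tested JAK-STAT signalling genes, 1 was called higher and 0 lower, beside 3.91% and 3.02% of all genes, with a median change of 0.23 beside -0.09. Stat3, the main transcription factor of the pathway, read 8.01, 9.58, 9.02 and 8.87 untreated and 10.11, 9.75, 10.18 and 10.74 inflamed, so that the groups did not overlap. Its change was 1.32 ± 0.34 (SE; adjusted p = 0.0497), close to the threshold. The call ended in 9 of 15 alternatives (adjusted p 0.0252 to 0.373 over all 15), among them leaving out pair 1, 3 or 4. Its other probe sets differed by 1.07, -0.02 and -0.13, and none was called in the fit over all probe sets. In that fit the brightest Stat3 probe set was not called either (adjusted p = 0.0573). The kinase Jak1 was higher in all 4 pairs by 0.78 ± 0.34 with its brightest probe set and did not pass (adjusted p = 0.214). Its other probe sets differed by 0.22 and 0.25, each higher in 3 of 4 pairs. Jak2 and Stat5a, named after their values were seen, differed by 0.97 ± 0.32 (0.115) and 1.27 ± 0.36 (0.0660). Ptpn11, which encodes the phosphatase SHP2 that binds gp130, differed by 0.41 ± 0.27 (0.434), and its other probe sets by -0.09 and 0.01.

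Of 8 tested genes for brakes and receptor shedding, 2 were called higher and 0 lower, beside 3.91% and 3.02% of all genes, with a median change of 0.64 beside -0.09. Socs3, the inhibitor that binds gp130, read 10.32, 9.92, 10.23 and 10.09 untreated and 11.29, 11.26, 11.20 and 11.68 inflamed. The groups did not overlap and were narrow, and the change was 1.22 ± 0.18 (SE; adjusted p = 0.00488). Its other probe sets rose by 1.25 and 2.35, both called in the fit over all probe sets. The call ended without the intensity trend (adjusted p = 0.159), over a range of 0.00150 to 0.159. Ptpn1, the phosphatase PTP1B, rose by 1.31 ± 0.24 (adjusted p = 0.0129), a call that ended without pair 1 (0.0621), without pair 3 (0.0785), without the intensity trend (0.141) and with its probe sets averaged (0.0511), the lowest over all alternatives being 0.00582. Its second probe set gave a change of 0.67 ± 0.45, which was not called (adjusted p = 0.575 in the fit over all probe sets). Adam10 and Adam17, proteases that shed cytokine receptors, differed by -0.47 ± 0.20 and 0.74 ± 0.47 and did not pass (adjusted p = 0.210 and 0.412); both were named after their values were seen.

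Of 26 tested genes known as targets of STAT3, 13 were called higher and 0 lower, beside 3.91% and 3.02% of all genes, with a median change of 1.23 beside -0.09 for all genes. The 13 include Stat3 and Socs3, already counted among the signalling and brake genes. The list was drawn up with earlier results of these data known, so its direction is no independent evidence, and several members are also targets of NF-kB or interferon signalling. Timp1, an inhibitor of matrix proteases, Cd274, the ligand PD-L1, and Saa3, an acute-phase protein, had the smallest p-values. Their untreated means were 0.66, 2.77 and 1.46, under the filter at 3.30. Like Il6 and Osm, these genes reached the filter only through their inflamed arrays. Timp1 rose at least 134.5-fold (adjusted p = 0.000115), while Saa3 and Cd274 changed by 7.42 ± 0.71 and 7.39 ± 0.67 (SE), with 1 and 2 of 4 untreated arrays above background. The antiprotease gene Serpina3n went from 9.66 ± 0.60 to 11.57 ± 0.16 (SD, n = 4; adjusted p = 0.00192), and the adhesion molecule Icam1 rose by 1.53 ± 0.19 (SE). Fos and Mcl1, named after their values were seen, differed by -0.11 and 0.07 and were not called. The count was 3 without the intensity trend (Timp1, Cd274 and Saa3) and 7 without pair 3.

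**Figure D4:**
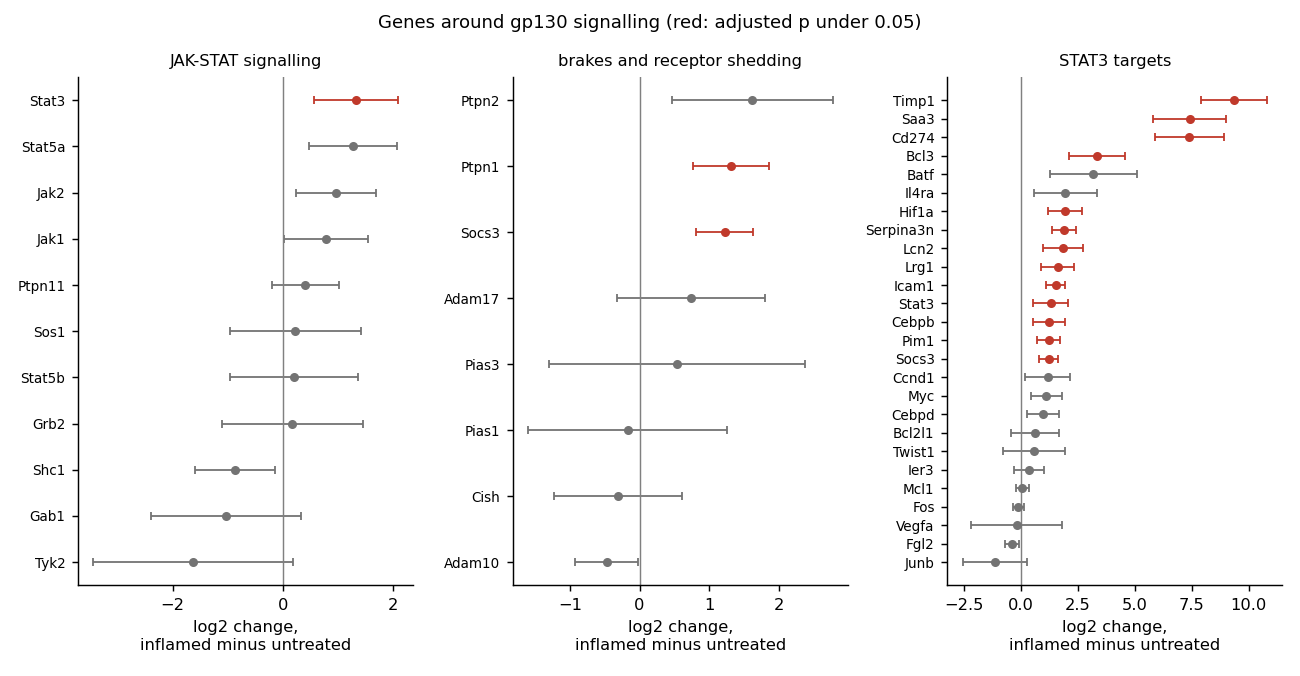
Log2 change, inflamed minus untreated (horizontal axis), with the 95% interval of the limma fit over all genes (bars), for tested genes of 3 lists: 11 of JAK-STAT signalling, 8 of brakes and receptor shedding and 26 STAT3 targets; the horizontal scales differ. Red marks the genes called, 1, 2 and 13 of them, all on the higher side. Stat3 and Socs3 each stand in 2 of the lists.

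Markers of other cell types were compared on the same arrays. The summed signal of 12 neutrophil markers ran from 48.1 to 79.0 on untreated and from 793.2 to 1932 on inflamed arrays, and 4 of the 12 were under background on all untreated and 3 on all inflamed arrays. S100a9 and S100a8 carried most of it, at means of 9.57 and 8.51 on the inflamed arrays, while Ltf was under background on all 8. Of the 16 monocyte and macrophage markers, summed at 547.5 to 1493 untreated and 1203 to 3758 inflamed, 13 had a higher mean in inflamed samples, and Mrc1 and Cd163 were the brightest there. The neutrophil markers Csf3r and Cxcr2 were under background on every untreated array and above it on 2 and 3 inflamed ones. Both were named after their values were seen. Of the 12 neutrophil markers, 10 had a higher mean in inflamed samples, while Elane and Mmp8 had a lower one. Elane was above background on 2 untreated and 0 inflamed arrays. Osm was highest in inflamed sample 4, where the neutrophil and monocyte sums were highest too. The neutrophil sum was next highest in inflamed sample 2, where Osm was lowest. On inflamed arrays 1 to 4 the monocyte and macrophage sums were 1312, 1203, 1274 and 3758. Ptprc read 4.82, 1.66, 3.05 and 5.14 there, and both ran in the same order of samples as Osm. Osm itself differed little between inflamed samples 2 and 3, at 4.80 and 4.87. Il6 ran in another order, at 7.01, 6.09, 6.65 and 6.46. Which cells gave the signal of Osm was not tested.

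The 12 fibroblast markers summed to 4476 to 20421 on untreated and 10841 to 24719 on inflamed arrays, and were higher in all 4 pairs. Col1a2 averaged 11.80 in untreated and 12.04 in inflamed samples, and Dcn differed by 0.91; neither was called. Of the 11 tested, 1 was called higher and 0 lower, beside 3.91% and 3.02% of all genes. This was Lum, named after its values were seen, which rose by 1.49 ± 0.29 (SE; adjusted p = 0.0167, higher in 4 of 4 pairs). The mean log2 signal of the pericyte and smooth muscle markers, led by Pdgfrb and Cspg4, was higher in 2 of 4 pairs, and that of the T cell markers, led by Thy1 and Cd247, in 1. Of the 10 T cell markers, 4 had a higher mean in inflamed samples. Cd3e was above background on 0 untreated and 1 inflamed array, and Cd3d on 3 untreated and 0 inflamed arrays. Thy1 and the macrophage marker Mrc1 averaged 11.18 and 8.69 in untreated samples, although Ptprc was under background on all 4 untreated arrays. Which cells gave the signal of Thy1 and Mrc1 was not tested. The mean of the keratinocyte markers, led by Krt14 and Krt5, was lower in all 4 pairs. Blood endothelial markers, led by Plvap and Efnb2, went both ways, 2 called higher and 3 lower of 8, beside 3.91% and 3.02% of all genes. The 2 called higher, Car4 and Selp, had untreated means of 2.54 and 2.17, under the filter. They reached it only through their inflamed arrays. Of the 11 lymphatic markers 4 were called lower and 0 higher, beside 3.02% and 3.91% of all genes. Their mean log2 signal was higher in 0 of 4 pairs, and only 1 of the 11 had a higher mean in inflamed samples. The median change was -0.72, and the summed signal ran from 24868 to 33978 on untreated and from 13597 to 24418 on inflamed arrays. For Gapdh, the 3' minus 5' difference in log2 signal ran from 3.40 to 4.16 on untreated and from 2.58 to 3.30 on inflamed arrays, whereas for Actb the groups overlapped, at -0.15 to -0.00081 and -0.12 to -0.013. The part of these cells and of RNA quality in the changes of Il6, Osm, Osmr, Stat3 and Socs3 was not tested.

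**Figure D5:**
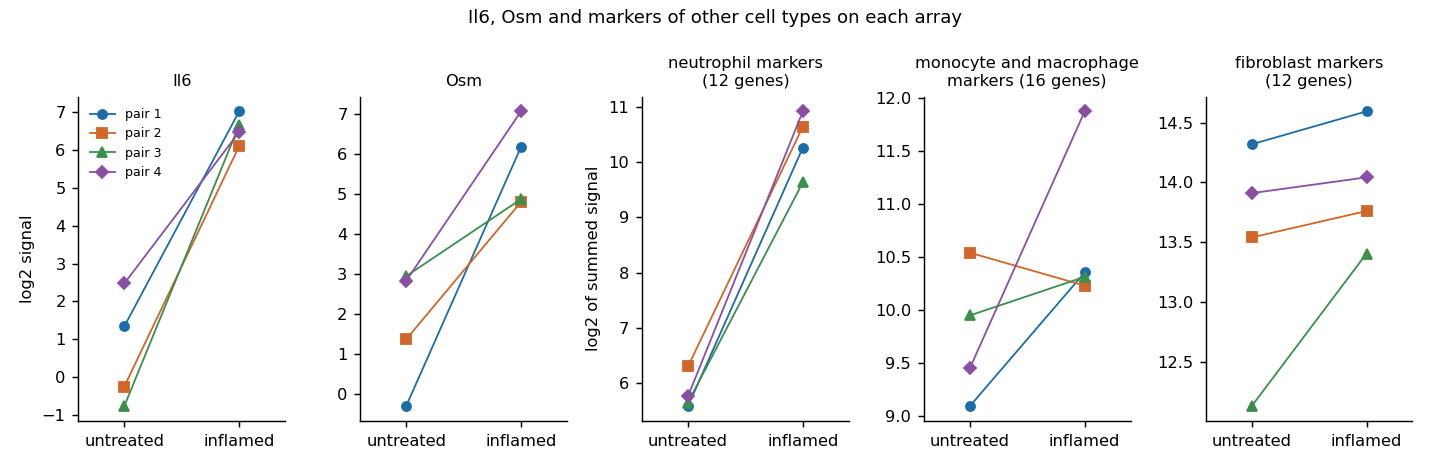
Log2 signal of Il6 and Osm and log2 of the summed signal of neutrophil, monocyte and macrophage, and fibroblast markers (vertical axes, each with its own scale) on the untreated and inflamed array of each pair (lines). The neutrophil and fibroblast sums are higher in all 4 pairs, and the monocyte and macrophage sum is higher in pairs 1, 3 and 4 and lower in pair 2.

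Genes with profiles most like those of the called ligands over the 8 arrays were found by the root mean square difference of log2 values after each gene's untreated mean was taken off. For Il6 these were Dhx58, an RNA sensor regulator, at 0.74, the chemokine Ccl9 at 0.89 and the guanylate-binding protein Gbp6 at 0.90. For Osm they were Grwd1 at 0.82, the amino acid transaminase Bcat1 at 0.92 and the protease Adamts4 at 0.95. This measure follows the size of the change as much as its pattern over arrays.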

How the data were processed

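RNA was amplified isothermally to single-stranded cDNA, biotin-labelled and hybridised to single-colour arrays, per the labels' protocols. The deposited table holds 1 linear signal intensity per probe set and array, made by the authors with MAS5 per the submitters' processing notes; its version and scaling target were not stated. The authors' scaling was kept, array medians differing by at most 0.468 on the log2 scale, and no pseudocount was added. The 64 control probe sets were left out. Genes were named only from probe sets annotated to 1 gene (34945), and the gene IDs of all 20 member probe sets were found in RefSeq. The probe set with the highest mean stood for a gene, and it was tested if that mean reached the median over probe sets (3.30, or 9.84 as signal). Log2 values were fitted with limma 3.58.1 in R 4.3.3 (lmFit, eBayes with trend); the pair entered as a fixed block, tests were two-sided, with Benjamini-Hochberg adjustment over all genes. A second fit took every non-control probe set. SE is limma's moderated error. A gene under background on all arrays of a group has a bound, the brighter mean over the mean background limit of the other group.

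Pairs are stated in the series' design text. Deviations of same-numbered samples correlated at 0.16, -0.00, 0.08 and 0.03 across genes in pairs 1 to 4. P-values refer to pools of 3 mice, and the number of arrays limits the precision. No 2 arrays were identical. The members and lists were chosen with earlier results of these data known. Named were all members, further family genes (1 is not reported here), the called genes of each pathway list (at most 6 by p) with Jak1, Stat3, Socs3 and Ptpn11 in any case, the 3 genes most like each called member, 5 checks of the sort and the 2 brightest markers of each cell type. Other genes named were picked after their values were seen. Alternatives were median centring, quantile and cyclic loess normalization, 16 added to the signal, no filter or one at the 75th percentile, eBayes without the trend or robust, no or a random pair block, averaged probe sets, and each pair left out. Figures were drawn with matplotlib 3.10.9.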

Additional observations from a re-analysis of the deposited data

Results flagged for a closer look

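In 64 groups of 4 arrays examined, 2 had 1 sample far from the others, where chance flags about 1 in 20. For Il11 (1449982_at), untreated sample 2 read 2.13 against -0.28 to -0.18 in the other 3, a gap of 0.96 of the group's range, and all 4 values lie under background. For the Il6st probe set 1437303_at, inflamed sample 1 read 10.25 against 9.91 to 9.94 in the others, a gap of 0.907 of the range.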

How the results depend on the processing

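Il6 kept its call in all 14 alternatives that tested it, and Osmr, Osm, Clcf1, Lif, Stat3 and Socs3 kept their direction in all that tested them. Signs turned for Lifr (0.19 under median centring, and -0.34 to 0.13 with a pair left out), Il6st (-0.18 under quantile and -0.20 under cyclic loess normalization), Il6ra (0.24 with probe sets averaged) and Il27ra (0.00082 under cyclic loess, 0.0083 with 16 added, and -1.15 to 0.74 with a pair left out), none of them called. The number of members called higher was 0 with the filter at the 75th percentile, which removes Il6 and Osm, 1 without the intensity trend, 1 with any pair left out, and 3 under median centring or with 16 added. Median centring gave 719 genes higher in all. Without the intensity trend 94 genes were higher and 47 lower, with 3 STAT3 targets, 0 brakes and 0 JAK-STAT genes. With a pair left out, 208 to 306 genes were higher and 126 to 198 lower, with 7 to 11 STAT3 targets, 1 to 2 brakes and 0 to 1 JAK-STAT genes. The JAK-STAT count was 3 under median centring (Jak2, Stat3, Stat5a) and 0 under quantile or cyclic loess normalization, with robust eBayes, without a filter or with probe sets averaged, where brakes numbered 1. Fgl2, a STAT3 target, was called lower, a count of 1, under quantile and cyclic loess normalization and with probe sets averaged. Without the replicate block 384 genes were higher and 301 lower, and Il6 and Osm kept their calls (adjusted p = 0.00158 and 0.0226); the block changed no call of a member. Apart from the smaller sets of genes or samples, the cause of these shifts was not tested. Signal near background limits Il6, Osm and Il11 in untreated samples to bounds.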
